A study of Mus musculus with 23 samples.

Results

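Glycolysis and hypoxia genes were followed in macrophages of C57BL/6 mice. They were chosen by name: 33 genes that encode glycolytic enzymes (18), regulators of glycolytic flux (3), the oxygen-sensing machinery (5) and other targets of hypoxia-inducible factors (7). All 33 were found in both tables, 33 of 22524 genes in the first and 33 of 25700 in the second. Each library held messenger RNA from 1000 cells sorted by flow cytometry, and 23 libraries fell into 8 groups.

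The first table held day-7 pups. Red pulp macrophages of the spleen (RPM_d7) and macrophages of the bone marrow (BMM_d7) were each sampled as 3 WT and 3 vavCre libraries. In vavCre mice the Vav promoter drives Cre across the blood-forming system, so recombination is not limited to macrophages. The second table held spleen macrophages only: 3 Spic_WT and 2 Spic_KO libraries of day-7 pups, and 2 TAM_WT and 4 TAM_CreERT2 libraries of adults. Spic_KO names loss of the transcription factor SPIC, and CreERT2 is a Cre that is switched on by tamoxifen. The labels give neither the floxed gene nor the meaning of TAM, nor whether replicates were separate animals, so p-values measure the spread between these libraries. By its title the study concerns PPARγ, and its design text speaks of a small remainder of Pparg-deficient cells, so such groups hold the cells that persisted and not the usual population.

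Glycolysis turns glucose into pyruvate and, through lactate dehydrogenase, lactate. Where oxygen is plentiful, EGLN hydroxylases mark the HIF alpha subunits, and VHL then directs their destruction. Where oxygen is scarce the subunits persist, pair with ARNT and bind hypoxia response elements beside genes for glycolytic enzymes, PDK1, VEGFA and BNIP3. The core of the element is ACGTG or GCGTG. Macrophages use the same system when they are activated, and red pulp macrophages, which take up old red cells, add the handling of heme and iron to their metabolism.

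Values are normalised read counts, comparable within a table only, and library values are listed in replicate order. A change is the difference of log2(value + 1), given with its SE, and it understates the changes of low genes. A gene passed the test at a Benjamini-Hochberg adjusted p under 0.05 in limma over all genes of its table, 15130 in the first and 16650 in the second.

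The libraries differed in depth and in RNA of other cells. Recovered reads per library ranged from 4.26 to 21.7 M in the first table, and in the second from 2.85 to 6.29 M in pups and from 0.693 to 4.24 M in adults. Globin transcripts took 2.07 to 3.48% of the signal in WT pups of the first table, 0.886 to 1.49% in vavCre, 5.01 to 7.21% in the Spic groups, and, among the adults, 7.44 to 10.9% with TAM_WT and 12.7 to 20.7% with CreERT2. Lars2, often high where ribosomal RNA is captured, took 0.274 to 0.791% in RPM_d7_Spic_WT, 2.09 to 2.15% in RPM_d7_Spic_KO and 5.59 to 12.1% in adults. None of 15 macrophage markers was at 0 in all libraries of any group. Spic read 2435 ± 594 (SD, n = 3) in RPM_d7_Spic_WT and 1084 ± 216 (n = 2) in RPM_d7_Spic_KO. The mean of Pparg was not lower in any Cre group than in its WT group (in RPM_d7_WT 1788 ± 299 and in RPM_d7_vavCre 3037 ± 838, n = 3 each), and a value per gene cannot show whether an exon was removed.

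Promoter sequences are shown for 5 members that the vavCre results turn on. They show which of these carry ACGTG, a form of the core of the hypoxia response element, near a start site. Each line holds the 250 bases upstream of a RefSeq start site, 5′ to 3′ on the gene's strand (GRCm38.p6), with ACGTG or its reverse complement CACGT in capitals. Pfkfb3, Aldoa and Pdk1 have further start sites that are not shown.
Pfkfb3, chr2:11553930-11554179, minus strand: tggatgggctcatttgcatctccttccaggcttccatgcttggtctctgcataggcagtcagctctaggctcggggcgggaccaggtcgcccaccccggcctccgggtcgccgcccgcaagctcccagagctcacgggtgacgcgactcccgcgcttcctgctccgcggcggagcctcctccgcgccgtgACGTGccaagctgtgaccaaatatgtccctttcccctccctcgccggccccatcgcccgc
Aldoa, chr7:126799255-126799504, minus strand: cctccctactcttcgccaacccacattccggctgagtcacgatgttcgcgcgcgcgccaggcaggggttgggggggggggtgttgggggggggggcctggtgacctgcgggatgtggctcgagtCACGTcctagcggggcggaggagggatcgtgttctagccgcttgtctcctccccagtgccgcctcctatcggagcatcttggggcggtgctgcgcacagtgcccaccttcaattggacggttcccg
Pgk1, chrX:106186850-106187099, plus strand: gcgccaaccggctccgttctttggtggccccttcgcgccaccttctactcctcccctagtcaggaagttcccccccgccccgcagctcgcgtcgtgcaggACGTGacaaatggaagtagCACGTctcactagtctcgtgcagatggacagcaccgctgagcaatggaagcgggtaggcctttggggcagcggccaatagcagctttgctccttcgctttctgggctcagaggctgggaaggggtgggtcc
Bnip3, chr7:138909507-138909756, minus strand: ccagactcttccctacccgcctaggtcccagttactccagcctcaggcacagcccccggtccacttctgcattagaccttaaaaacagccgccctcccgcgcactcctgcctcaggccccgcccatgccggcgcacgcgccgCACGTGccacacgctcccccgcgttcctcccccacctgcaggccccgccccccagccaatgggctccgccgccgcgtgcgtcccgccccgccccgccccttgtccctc
Pdk1, chr2:71872974-71873223, plus strand: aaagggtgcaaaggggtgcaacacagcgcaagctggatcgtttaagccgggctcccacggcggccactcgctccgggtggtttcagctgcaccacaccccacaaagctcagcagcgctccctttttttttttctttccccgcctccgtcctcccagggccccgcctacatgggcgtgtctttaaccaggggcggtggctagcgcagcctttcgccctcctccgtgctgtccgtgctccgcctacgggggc

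Pfkfb3, Aldoa, Pgk1 and Bnip3 held ACGTG on either strand in the window shown and Pdk1 did not. The form GCGTG was not searched for, and the Pdk1 window shown holds it, so Pdk1 cannot be said to lack a core. The Aldoa window shown belongs to a later start site, and that of its first start site held no match. In Pfkfb3 the match starts at -60 from the start site, in Aldoa at -126 and in Pgk1 at -150 and -131. In Bnip3 the palindrome CACGTG gives overlapping matches at -108 and -107. Of the 30 members with a promoter in the table, 16 (53.3%) held ACGTG on either strand in at least 1 window, against 18.5% of 27025 genes. By role these were 8 of 18 glycolytic enzymes, 1 of 3 flux regulators, 3 of 4 oxygen-sensing genes and 4 of 5 other HIF targets. Many members are named as HIF targets, so this share describes the list. A gene with more start sites also has more windows in which to match. Aldoa, Pkm and Vegfa counted only through a later start site. By window, 16.6% of all 32851 held a match. A match is a run of letters and not a site shown to be bound.

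In day-7 WT macrophages the most abundant members per kb of transcript were enzymes of the lower and middle steps. Gapdh, which oxidises glyceraldehyde phosphate, stood at 6084 ± 1228 normalised reads per kb in spleen and 4936 ± 1531 in marrow (SD, n = 3 each). The aldolase gene Aldoa followed at 3079 ± 321 and 2940.2 ± 601. In spleen the enolase gene Eno1 (2989.8 ± 757) and the lactate dehydrogenase gene Ldha (2953 ± 405) came next, within the spread of Aldoa. In marrow Ldha read 2757 ± 866 and Eno1 1214 ± 546.

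For most steps 1 isozyme carried nearly all the signal per kb. Aldoa made up 99.9 ± 0.115% of aldolase in WT spleen, beside the brain form Aldoc. Ldha made up 98.6 ± 1.21% of lactate dehydrogenase in spleen and 94.6 ± 4.0% in marrow, beside the heart form Ldhb. Of the hexokinases, which trap glucose as its phosphate, the myeloid form Hk3 took 77.8 ± 2.30% in spleen and 68.0 ± 4.09% in marrow. The phosphofructokinases were more even, with 43.2 ± 9.82% for Pfkp and 42.0 ± 12% for Pfkl in spleen. Pfkfb4 held 73.7 ± 10.4% of the Pfkfb3 and Pfkfb4 signal in WT spleen and 67.6 ± 4.78% in marrow.

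**Figure D1:**
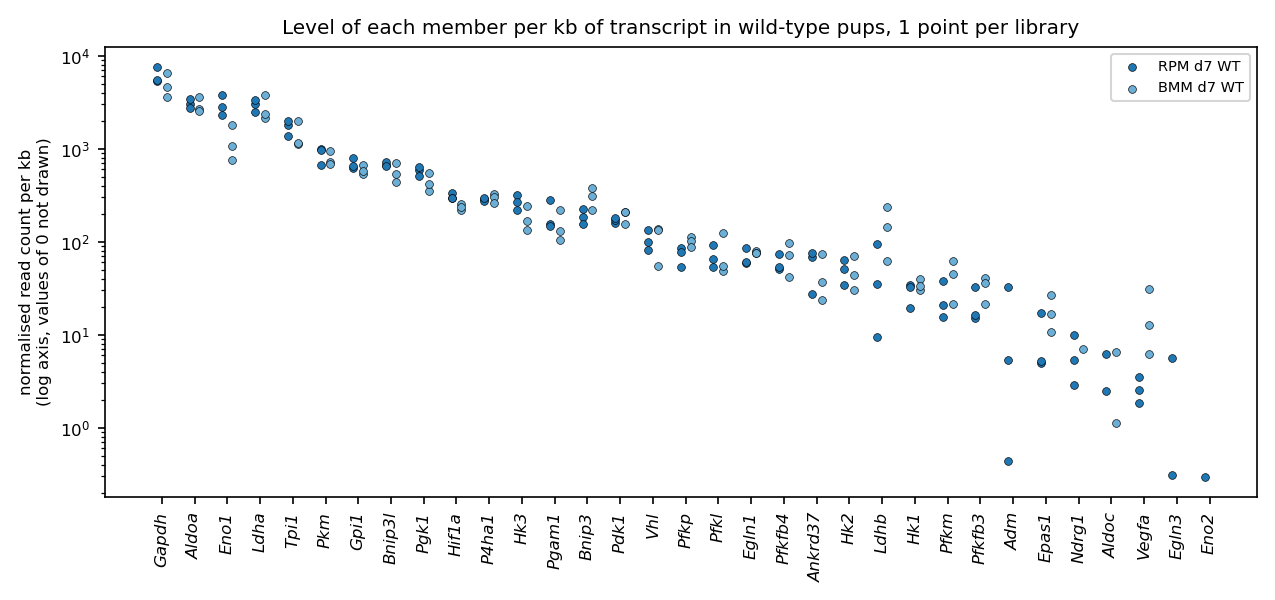
Normalised read count per kb of transcript (log axis) of the 33 members in RPM_d7_WT and BMM_d7_WT, 1 point per library, ordered by the spleen mean. Gapdh, Aldoa, Eno1 and Ldha lead in spleen, and Eno1 is the abundant member whose spleen and marrow points are apart.

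Few of the 33 genes changed with vavCre. In spleen the flux regulator Pfkfb3, the enzyme Aldoa and the mitophagy gene Bnip3 rose. In marrow Pfkfb3, Aldoa and the enzyme Pgk1 rose and the kinase Pdk1 fell. That is 3 of 33 members higher in spleen (9.09%) against 2.98% of all genes tested, and none lower against 2.54%. In marrow 3 of 33 were higher (9.09%) against 3.41% of all genes, and 1 was lower (3.03%) against 4.40%. All vavCre libraries lay above all WT libraries for 6 members in spleen (18.2%) against 11.6% of all genes, and for 6 in marrow (18.2%) against 8.96%. They lay below all WT libraries for 3 members in spleen (9.09%) against 12.4% of all genes, and for 1 in marrow (3.03%) against 10.9%.

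Pfkfb3 changed most of the members that passed. It encodes the kinase-rich form of the enzyme that makes the strongest activator of phosphofructokinase, so it sets the pace of glycolysis. The gene lies at chr2:11471433-11554077, minus strand (GRCm38) and overlaps the predicted genes Gm37975 and Gm10851. It read 69.5, 152 and 75.8 in RPM_d7_WT and 329.6, 320.5 and 244 in RPM_d7_vavCre. In marrow it read 187, 99.9 and 165 in WT and 475, 657 and 568 in vavCre. Every vavCre library was above every WT library of its tissue. The log2 change was 1.66 ± 0.36 in spleen (limma adjusted p = 0.00786) and 1.94 ± 0.36 in marrow (limma adjusted p = 0.00204). Both calls held under each of 15 alternatives.

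Pfkfb4, a relative of Pfkfb3 with both kinase and phosphatase activity, read 207 ± 41.9 in WT spleen and 173 ± 10.3 in vavCre spleen (SD, n = 3 each), and 243 ± 95.7 and 285 ± 86.6 in marrow. Neither change passed. Per kb, the Pfkfb3 part of the pair was 26.3 ± 10.4% in WT and 56.2 ± 4.14% in vavCre spleen, and 32.4 ± 4.78% and 60.2 ± 8.88% in marrow. The ranges of these shares did not overlap in either tissue.

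Pdk1 encodes a kinase that shuts down pyruvate dehydrogenase and so keeps pyruvate out of the mitochondria (chr2:71873224-71903858, plus strand). In marrow it read 1076, 1075 and 795 in WT and 787, 469 and 362 in vavCre. The highest vavCre library lay just under the lowest WT library. It fell by 0.93 ± 0.25 on the log2 scale (limma adjusted p = 0.0241). In spleen it read 819, 893 and 925 in WT and 604, 643 and 754 in vavCre, also without overlap, with a log2 change of -0.40 ± 0.25 that did not pass (limma adjusted p = 0.481). The marrow call was lost without WT replicate 1 (adjusted p = 0.0862) or 2 (0.0723), without vavCre replicate 2 (0.0691) or 3 (0.111), and when only the compared groups were fitted (0.0673).

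Of the 18 glycolytic enzymes, Aldoa was the one that passed in both tissues. Aldoa cleaves fructose bisphosphate into triose phosphates (chr7:126795234-126800751, minus strand, overlapping Fam57b, which read 0 to 39.8 in this table). It read 4604, 4194 and 5160 in WT and 7603, 6243 and 6382 in vavCre spleen. In marrow the values were 4004, 5486 and 3838 in WT and 6952, 6871 and 6661 in vavCre. The groups did not overlap in either tissue. The log2 change was 0.53 ± 0.13 in spleen (limma adjusted p = 0.0222) and 0.64 ± 0.13 in marrow (limma adjusted p = 0.00519). The marrow call held under each of 15 alternatives. The spleen call was lost without WT replicate 1 (adjusted p = 0.0764) or 2 (0.116) and without vavCre replicate 1 (0.113) or 3 (0.0506).

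Pgk1, the phosphoglycerate kinase that makes the first ATP of the pathway (chrX:106187100-106203699, plus strand), read 646, 994 and 759.8 in WT and 1256, 1411 and 1254 in vavCre marrow. All vavCre values lay above all WT values, with a log2 change of 0.73 ± 0.20 (limma adjusted p = 0.0289). In spleen it read 1082, 925 and 1177 in WT and 2031, 1385 and 1341 in vavCre, again without overlap, but the log2 change of 0.56 ± 0.20 did not pass (limma adjusted p = 0.13). The marrow call was lost without WT replicate 1 (adjusted p = 0.124) or 3 (0.0837), without vavCre replicate 1 (0.0546), 2 (0.084) or 3 (0.054), and with the compared groups only (0.0614). Reads of Pgk1, Aldoa, Gapdh and Eno1 may be split with their processed pseudogenes.

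Other abundant enzymes did not pass. Gapdh had a log2 change of 0.04 ± 0.18 in spleen and 0.21 ± 0.18 in marrow. Ldha had -0.07 ± 0.17 and 0.10 ± 0.17, Tpi1, the triose phosphate isomerase, 0.11 ± 0.20 and 0.27 ± 0.20, and Gpi1, the glucose phosphate isomerase, -0.07 ± 0.15 and 0.14 ± 0.15. Pyruvate kinase Pkm read 1756, 2326 and 1652 in WT and 2633, 2751 and 2519 in vavCre marrow, without overlap, at 0.48 ± 0.19 (limma adjusted p = 0.149). Hk3 in marrow was at 0.73 ± 0.25 (limma adjusted p = 0.0845). The remaining enzymes Hk1, Hk2, Pfkl, Pfkm, Pfkp, Pgam1, Eno1, Ldhb, Aldoc and Eno2 did not pass in either tissue. Among these the minor aldolase Aldoc read 0, 17.4 and 6.84 in WT and 63.8, 75.5 and 41.2 in vavCre spleen, at most 104 reads per library (limma adjusted p = 0.147). Eno2, the neuronal enolase, had no more than 3 reads in any library of the first table.

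**Figure D2:**
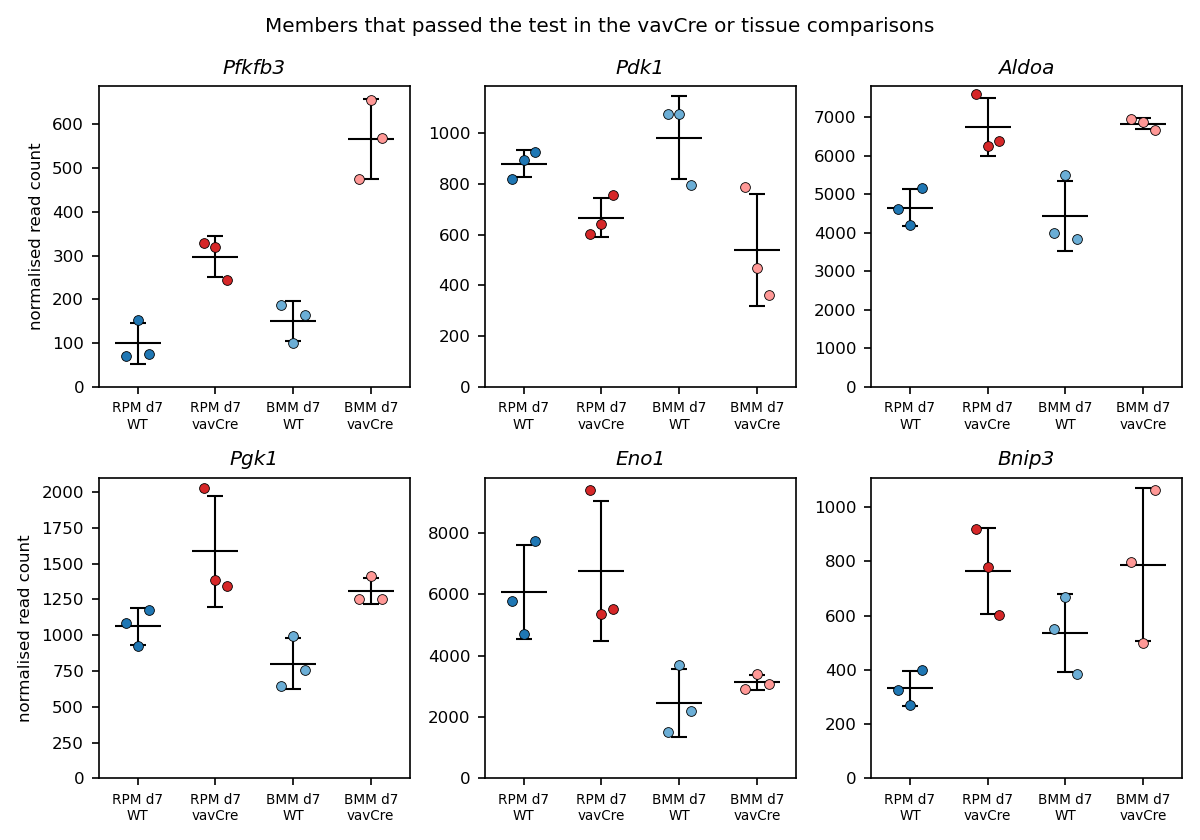
Normalised read counts in the 4 groups of the first table, 1 point per library with the mean and SD (n = 3), for 6 members that passed in a vavCre or tissue comparison. Pfkfb3 and Aldoa are above WT in every vavCre library of both tissues, and Eno1 separates spleen from marrow.

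The oxygen-sensing genes did not pass in either tissue. Hif1a, the subunit that oxygen destabilises as a protein, read 1579, 1412 and 1397 in RPM_d7_WT and 1792, 1212 and 1096 in RPM_d7_vavCre. In marrow it read 1203, 1028 and 1127 in BMM_d7_WT and 1028, 977 and 1014 in BMM_d7_vavCre. The groups overlapped in both tissues. Its log2 changes were -0.13 ± 0.18 and -0.15 ± 0.18. RNA does not show how much HIF protein was present. Vhl, the receptor of the ligase that removes it, was at 0.23 ± 0.40 and -0.08 ± 0.40. Of the hydroxylases, Egln1 read 286, 271 and 272 in WT and 448, 456 and 348 in vavCre marrow, higher without overlap at 0.58 ± 0.27 (limma adjusted p = 0.227), and in spleen it was at 0.06 ± 0.27. Epas1, which encodes the HIF alpha relative found in endothelium and some macrophages, ranged from 11.3 to 186 over the 12 libraries with overlap between groups. Egln3 had reads in 4 of those 12 libraries.

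Among the other HIF targets Bnip3 passed, in spleen. BNIP3 sits on mitochondria and marks them for autophagy (chr7:138890836-138909519, minus strand). It read 325, 272 and 399 in WT and 919, 778 and 601 in vavCre spleen, without overlap. The log2 change was 1.20 ± 0.29 (limma adjusted p = 0.0156). In marrow it read 551, 669 and 384 in WT and 798, 501 and 1064 in vavCre, groups that overlapped, at 0.53 ± 0.29 (limma adjusted p = 0.322). The test of the difference between tissues did not pass for Bnip3 (0.67 ± 0.41, adjusted p = 0.873 in limma). The spleen call was lost without WT replicate 1 (adjusted p = 0.0529) or 2 (0.0846) and without vavCre replicate 1 (0.0807) or 2 (0.061).

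Its relative Bnip3l, which clears mitochondria from maturing red cells, lay lower in vavCre spleen (1929, 1683 and 1434 against 2143, 2330 and 2102 in WT) without passing (-0.39 ± 0.20, adjusted p = 0.362 in limma). In marrow it read 1715, 2270 and 1416 in WT and 1513, 965 and 1580 in vavCre, with overlap. P4ha1, a collagen prolyl hydroxylase, was at 0.08 ± 0.17 in spleen and -0.01 ± 0.17 in marrow. The growth factor gene Vegfa was low, with 2, 2 and 5 reads in WT spleen and 34, 11 and 25 in vavCre spleen. Those values, 1.21, 1.66 and 2.28 against 20.9, 9.33 and 19.8, did not overlap, and the change did not pass (limma adjusted p = 0.175). Ndrg1, a stress-response gene, read 29.0, 8.31 and 15.5 in RPM_d7_WT and 0, 0.848 and 0 in RPM_d7_vavCre, lower without overlap (limma adjusted p = 0.157). Ankrd37 and the vasodilator gene Adm overlapped between WT and vavCre in both tissues.

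Glycolytic enzymes and other HIF targets were compared by their median changes. The median log2 change was 0.11 over the 18 enzymes and 0.00 over the 7 other targets in spleen, and 0.32 and -0.01 in marrow. Over all genes tested it was -0.02 and -0.04. In spleen 12 of 18 enzymes and 4 of 7 other targets had a change above 0, and in marrow 14 of 18 and 3 of 7. Over all 15130 genes tested, 7051 had a change above 0 in spleen and 6978 in marrow. The enzymes include Aldoc and Eno2, which had few reads. The difference between the classes was not tested.

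No member passed the test of a vavCre effect that differs between spleen and marrow in limma, against 0.119% of all genes. At an unadjusted p under 0.05 there were 3 of 33 members (Vegfa, Egln3 and Epas1), named after their values were seen, against 935 of all 15130 genes. edgeR and DESeq2 each called 0 members. For Pfkfb3 the difference was -0.28 ± 0.51, for Aldoa -0.10 ± 0.19 and for Pdk1 0.52 ± 0.35.

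Signs of other cells and of dividing cells moved with vavCre. Of 21 erythroid markers 12 fell in spleen and 17 in marrow, and none rose. Their summed level was 2.33 to 3.53% of the signal in WT and 1.15 to 1.61% in vavCre spleen, and 2.53 to 3.73% and 0.938 to 1.39% in marrow, and none was at 0 in all libraries of a group. Of 27 cell cycle genes 9 fell in spleen and 10 in marrow, and of 15 macrophage markers 4 rose and 2 fell in spleen and 4 rose and 3 fell in marrow. Of 16 neutrophil markers 2 rose in spleen and 1 in marrow, with summed levels of 0.00704 to 0.0294% in WT and 0.0296 to 0.0593% in vavCre spleen, and 0.0204 to 0.0529% and 0.0229 to 0.0290% in marrow. Of 12 B cell markers 1 rose and 1 fell in spleen and 2 fell in marrow. Of 10 megakaryocyte and platelet markers 1 rose in spleen, and 1 rose and 1 fell in marrow. They summed to 0.00822 to 0.0111% in WT and 0.0885 to 0.141% in vavCre spleen, and to 0.0279 to 0.0451% and 0.167 to 0.186% in marrow. Pf4 alone held 98.2 to 98.3% of that sum in vavCre spleen and 98.9 to 99.7% in vavCre marrow. Without Pf4 the sum was 0.00211 to 0.00621% in WT and 0.00159 to 0.00246% in vavCre spleen. Bulk values cannot tell fewer cells of a type from less RNA per cell. The part of any of these in the changes above was not tested.

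**Figure D3:**
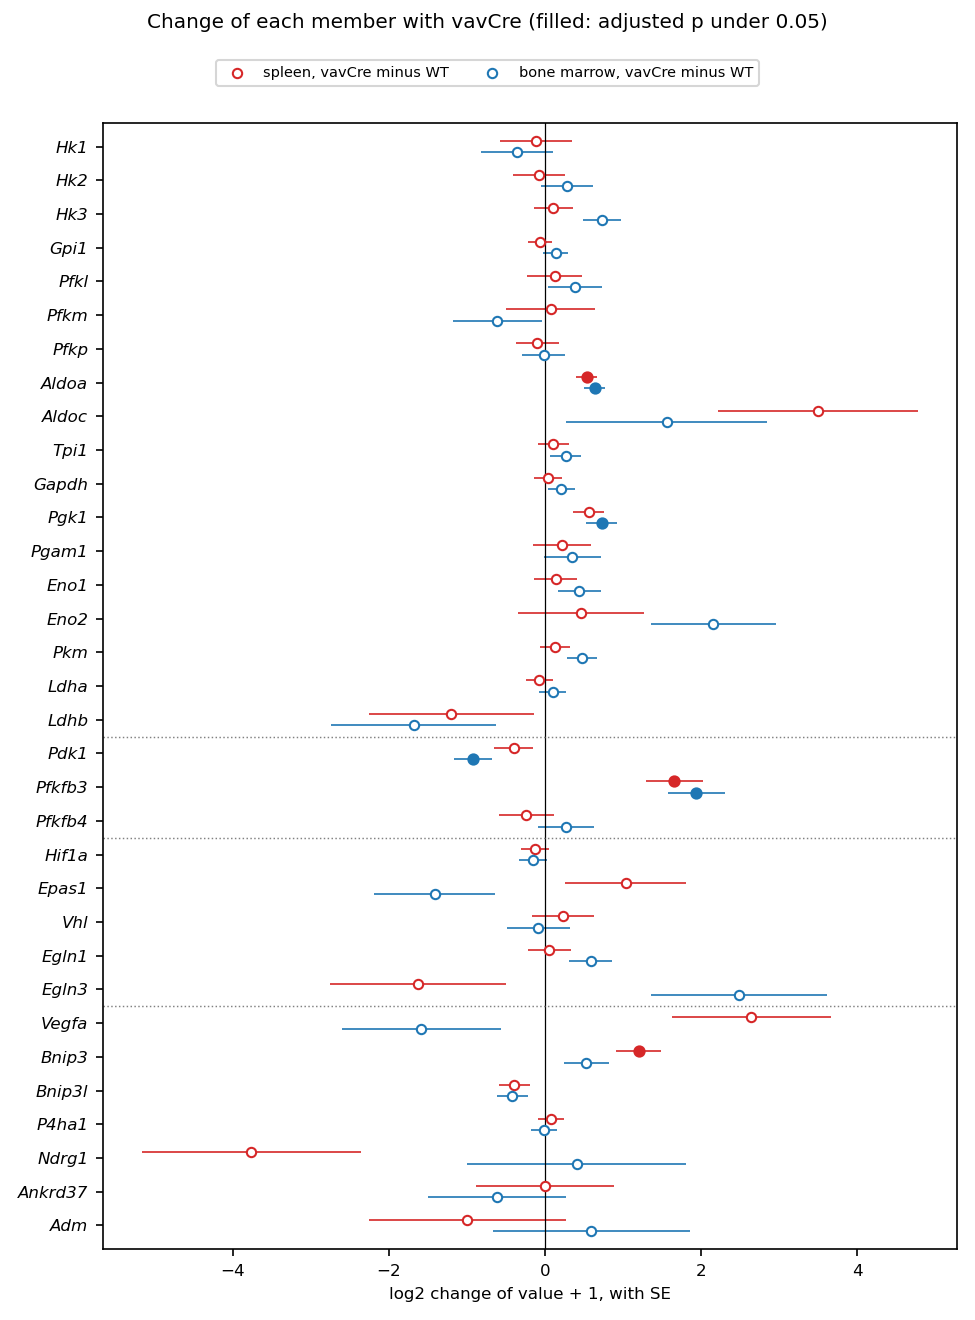
Log2 change with its SE of each member, vavCre minus WT, in spleen (red) and bone marrow (blue), 3 against 3 libraries each. Dotted lines part the enzymes, flux regulators, oxygen-sensing genes and other HIF targets, and filled points mark Pfkfb3 and Aldoa in both tissues, Bnip3 in spleen, and Pgk1 and Pdk1 in marrow.

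Between tissues Eno1 stood apart. Eno1 encodes enolase, which forms phosphoenolpyruvate (chr4:150236721-150248879, plus strand). In WT it read 5774, 4690 and 7717 in spleen and 1522, 3681 and 2180 in marrow, and in vavCre 9400, 5365 and 5510 in spleen and 2916, 3390 and 3074 in marrow. All spleen libraries were above all marrow libraries of their genotype. The log2 difference, spleen minus marrow, was 1.37 ± 0.28 in WT (limma adjusted p = 0.011) and 1.06 ± 0.28 in vavCre (limma adjusted p = 0.047). Within a library Eno1 was 1.12 to 1.5 times Aldoa in WT spleen and 0.380 to 0.671 times in WT marrow, in reads not divided by length. The WT call was lost without spleen replicate 3 (adjusted p = 0.0536) or marrow replicate 3 (0.0553) and in edgeR (0.0771). The vavCre call was lost in 11 of 15 alternatives, among them each of the 6 libraries left out in turn, with an adjusted p of 0.0601 to 0.154. It was also lost with a pseudocount of 0.1 (0.0803), without a filter (0.0618), with the strict filter (0.0773) and in edgeR (0.134).

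Thus 1 of 33 members (3.03%) was higher in spleen than marrow in WT, against 2.07% of all genes, and none lower, against 1.82%. In vavCre it was 1 of 33 (3.03%) against 2.68%, and none lower against 0.820%. These shares are near the background. Hif1a was higher in spleen without overlap in both genotypes (0.39 ± 0.18 in WT and 0.41 ± 0.18 in vavCre) and did not pass. Without overlap Adm, Eno1 and Hif1a were higher in WT spleen, and Pfkp and Vegfa lower. In vavCre Aldoc, Eno1, Hif1a and Vegfa were higher, and Egln1, Hk2, Pfkfb3, Pfkfb4 and Pfkp lower. The share of all genes without overlap is not set beside these names, so they are not read as a result about the members. Adm had reads in each WT spleen library (1, 9 and 100 reads) and none in WT marrow. Of 20 immediate early genes, which sorting can switch on, 14 were higher in spleen in WT and 17 in vavCre. Whether that bears on Eno1 was not tested.

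In Spic_KO pups 1 member passed, the mitophagy receptor gene Bnip3l. Bnip3l (chr14:66985239-67008877, minus strand) read 403, 298 and 303 in RPM_d7_Spic_WT and 97.6 and 138 in RPM_d7_Spic_KO, without overlap. It fell by 1.51 ± 0.42 on the log2 scale (limma adjusted p = 0.0448). That is 1 of 33 members (3.03%) lower, against 2.48% of all genes, and none was higher, against 1.47%. Over all genes limma called 245 higher and 413 lower, and after TMM rescaling 252 and 392. edgeR, which scales by TMM as well, called 554 and 395. The cause of the difference between limma and edgeR was not tested. The Bnip3l call was lost without each Spic_WT library (adjusted p = 0.19, 0.103 and 0.115) and without Spic_KO replicate 1 (0.118) or 2 (0.087). It was also lost with a pseudocount of 5 (0.0572), without a filter (0.0766), after TMM rescaling (0.0503) and with the replicate block. Thus 9 of 15 alternatives ended the call.

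Eno1 read 772, 423 and 411 in Spic_WT and 138 and 213 in Spic_KO. The log2 change was -1.57 ± 0.49 and did not pass (limma adjusted p = 0.077), though edgeR and DESeq2 called it. Gapdh read 1775, 1247 and 1415 in RPM_d7_Spic_WT and 695 and 550 in RPM_d7_Spic_KO, at -1.24 ± 0.53 (limma adjusted p = 0.21). Neither gene overlapped between the groups. Ldha read 503, 459 and 506 in RPM_d7_Spic_WT and 259 and 268 in RPM_d7_Spic_KO, also apart, at -0.89 ± 0.55 (limma adjusted p = 0.419). Aldoa, by contrast, read 541, 313 and 361 in Spic_WT and 406 and 400.5 in Spic_KO, inside the WT range. Pgk1 read 166, 163 and 182 in RPM_d7_Spic_WT and 119 and 139 in RPM_d7_Spic_KO, apart at -0.40 ± 0.41 (limma adjusted p = 0.682).

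All Spic_KO libraries lay below all Spic_WT libraries for 8 of 33 members (24.2%), against 19.4% of all genes. They lay above for 4 members (12.1%), against 14.8%. Those 4 were Pkm (132, 188 and 177 in RPM_d7_Spic_WT and 395 and 204 in RPM_d7_Spic_KO), Hk2 (27.8, 80.9 and 81.2 in RPM_d7_Spic_WT and 83.1 and 89.0 in RPM_d7_Spic_KO), Vhl (44.0, 49.4 and 56.6 in RPM_d7_Spic_WT and 58.1 and 62.6 in RPM_d7_Spic_KO) and Epas1 (5.81, 0.701 and 8.41 in RPM_d7_Spic_WT and 13.5 and 17.6 in RPM_d7_Spic_KO), and none of them passed. The 8 below were Bnip3l, Eno1, Gapdh, Ldha, Pgk1, Hif1a, Pfkm and Pgam1.

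Within a library the ratio of Gapdh to Aldoa, which no scaling changes, was 3.28 to 3.98 in Spic_WT and 1.37 to 1.71 in Spic_KO. The ratio of Eno1 to Aldoa was 1.14 to 1.43 and 0.341 to 0.532. Neither ratio overlapped between the groups. Hif1a read 136, 123 and 128 in Spic_WT and 59.1 and 62.1 in Spic_KO, without overlap, at -1.07 ± 0.43 (limma adjusted p = 0.178).

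Pfkfb3 differed between the Spic_KO libraries themselves. It read 12.6, 41.7 and 12.9 in Spic_WT and 24.5 and 164 in Spic_KO, so 1 Spic_KO library was inside the WT range and the other far above it. Pdk1 (160.3, 115 and 118 against 81.1 and 126) and Bnip3 (48.8, 58.9 and 56.0 against 53.1 and 99.9) overlapped between the groups. The median log2 change was -0.04 over the 18 enzymes, 0.15 over the 7 other HIF targets and 0.00 over all genes. Macrophage markers moved too, with 7 of 15 lower, none higher and a summed level of 2.37 to 2.92% of the signal in Spic_WT and 1.51 to 1.67% in Spic_KO. The mean log2(value + 1) of 21 erythroid markers was 7.88 to 8.05 in Spic_WT and 7.32 to 7.33 in Spic_KO. Their summed levels overlapped, at 5.23 to 7.39% and 5.11 to 5.45%. For 27 cell cycle genes the mean was 6.29 to 6.46 in Spic_WT and 5.39 to 5.555 in Spic_KO. Mitochondrial transcripts took 3.77 to 4.48% and 1.24 to 1.89%. The part of these in the results was not tested.

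In adults no member passed between RPM_TAM_CreERT2 and RPM_TAM_WT in limma, against 0.0601% of all genes higher and 0.0841% lower. After TMM rescaling 6 genes of the table were higher and 14 lower, in place of 10 and 14. Gapdh, Ldha, Pkm and Eno2 had an unadjusted limma p under 0.05, and were named after their values were seen. The share of all genes at that cut is not set beside them, so they are not read as a result about the members. edgeR called 0 members and DESeq2 called 1, Gapdh. Gapdh read 90.6 and 326 in RPM_TAM_WT and 80.6, 19.9, 99.7 and 71.9 in RPM_TAM_CreERT2, groups that overlapped. The CreERT2 values rest on 71, 9, 106 and 56 reads. Its log2 change was -1.54 ± 0.51 (limma adjusted p = 0.422).

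Ldha read 169.8 and 209 in RPM_TAM_WT and 106, 17.7, 131 and 57.8 in RPM_TAM_CreERT2, lower without overlap at -1.59 ± 0.52 (limma adjusted p = 0.418). Pkm read 233 and 195 in RPM_TAM_WT and 111, 106, 132 and 110.4 in RPM_TAM_CreERT2, likewise apart at -0.89 ± 0.34 (limma adjusted p = 0.546). Pfkfb3, the member that rose with vavCre in pups, read 30.2 and 34.7 in RPM_TAM_WT and 43.2, 117, 89.4 and 64.2 in RPM_TAM_CreERT2. All CreERT2 libraries were above both WT libraries, and the log2 change of 1.16 ± 0.70 did not pass (limma adjusted p = 0.728). Aldoa read 428 and 304 in RPM_TAM_WT and 448, 426, 328 and 444 in RPM_TAM_CreERT2, with overlap.

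Without overlap Pfkfb3 lay above WT, and Ldha, Pkm and Eno2 below. Eno2 had few reads and was at 0 in all CreERT2 libraries. There 3 reads stand for values of 2.82 to 6.65, so its place is not read as a fall. The share of all genes without overlap is not set beside these names, so they are not read as a result about the members. Of the members that passed in other comparisons, Pfkfb3 did not overlap between the adult groups, while Aldoa, Gapdh and the following 5 did. Eno1 read 76.8 and 238 in RPM_TAM_WT and 67.0, 173, 66.8 and 123 in RPM_TAM_CreERT2. Pgk1 read 71.0 and 108 in RPM_TAM_WT and 57.9, 117, 80.9 and 107 in RPM_TAM_CreERT2. Pdk1 read 32.7 and 75.6 in RPM_TAM_WT and 44.3, 8.86, 21.6 and 61.6 in RPM_TAM_CreERT2. In each the CreERT2 range reached into the WT range. Bnip3 read 8.17 and 49.2 in RPM_TAM_WT and 44.3, 86.4, 17.9 and 19.3 in RPM_TAM_CreERT2, and Bnip3l 121 and 251 in RPM_TAM_WT and 199, 104, 141 and 79.6 in RPM_TAM_CreERT2. The median log2 change was -0.30 over the enzymes, -0.16 over the other HIF targets and 0.00 over all genes. RPM_TAM_CreERT2 held the shallowest libraries of the series and the highest globin share, and their part in these values was not tested.

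Gapdh and Eno1 were lower in adult than in pup WT spleen macrophages. This comparison sets RPM_TAM_WT against RPM_d7_Spic_WT, which differ in age, in what TAM marks and in cohort together, so these cannot be told apart, and it shares its control libraries with the Spic_KO comparison. Gapdh (chr6:125161715-125166467, minus strand) read 1775, 1247 and 1415 in the pups and 90.6 and 326 in the adults. It fell by 3.08 ± 0.53 on the log2 scale (limma adjusted p = 0.00232). Eno1 read 772, 423 and 411 in RPM_d7_Spic_WT and 76.8 and 238 in RPM_TAM_WT and fell by 1.91 ± 0.49 (limma adjusted p = 0.0318). Neither gene overlapped between the groups. Thus 2 of 33 members (6.06%) were lower, against 1.86% of all genes, and none was higher, against 1.56%.

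Without RPM_TAM_WT replicate 1 the Gapdh change was -2.16 (limma adjusted p = 0.196) and the Eno1 change -1.10 (limma adjusted p = 0.671). The Eno1 call was also lost without Spic_WT replicate 1 (adjusted p = 0.173), 2 (0.0682) or 3 (0.0621), and without a filter (0.0641). Gapdh overlaps Iffo1, which read 16.7 to 132 across the second table, comparable to the adult values of Gapdh. Ldha (503, 459 and 506 against 169.8 and 209), Pgam1, a phosphoglycerate mutase (69.3, 80.2 and 55.3 against 25.3 and 23.5), and Pgk1 were lower without overlap and did not pass. Pkm (132, 188 and 177 against 233 and 195) lay higher and Aldoa overlapped. Also lower without overlap were Ankrd37, Bnip3l, Pdk1 and Pfkfb4, and higher Adm, Aldoc, Eno2, Hk1 and Ndrg1. The share of all genes without overlap in this comparison is not set beside these names. Between the Spic groups, also 3 against 2 libraries, 19.4% of all genes were lower and 14.8% higher without overlap. The names are thus not read as a result about the members.

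Macrophage markers were lower in the adults for 5 of 15 and higher for none, with a summed level of 2.37 to 2.92% of the signal in RPM_d7_Spic_WT and 1.52 to 1.94% in the adult WT. Their part in the Gapdh and Eno1 values was not tested.

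Gapdh made up 35.2 to 37.6% of the summed signal of the 18 enzymes in RPM_d7_Spic_WT, 21.3 to 24.9% in Spic_KO, 4.95 to 15.7% in the adult WT and 1.32 to 6.49% in the CreERT2 libraries. The sum of the enzymes was 0.239 to 0.297% of the signal in Spic_WT, 0.163 to 0.196% in Spic_KO, 0.118 to 0.135% in the adult WT and 0.0831 to 0.0987% in the CreERT2 libraries. Without Gapdh it was 0.155 to 0.185%, 0.128 to 0.147%, 0.112 to 0.114% and 0.0790 to 0.0974%. The 4 ranges did not overlap with or without Gapdh. The shares of globin and Lars2 in the adults were above those of the pups, and their part in the sums was not tested.

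Ankrd37, a small HIF target, was listed at 0 in all 6 adult libraries and read 9.35, 13.0 and 12.3 in RPM_d7_Spic_WT. A count of 0 in the adults allows values of up to 1.09 to 6.65 per library (3 reads, counting error only). The change did not pass (limma adjusted p = 0.0796). Other members of the second table did not pass in any of its comparisons: Hk1, Hk2, Hk3, Gpi1, Pfkl, Pfkm, Pfkp, Tpi1, Pfkfb4, Epas1, Vhl, Egln1, P4ha1 and the sparse Aldoc, Eno2, Ldhb, Egln3, Vegfa, Ndrg1 and Adm. Hk3 took 71.4 ± 7.22% of hexokinase per kb in Spic_WT, 63.2 ± 21.9% in RPM_TAM_WT and 66.4 ± 8.74% in RPM_TAM_CreERT2. Hif1a read 84.9 and 136 in RPM_TAM_WT and 88.6, 148, 141 and 244 in RPM_TAM_CreERT2, with overlap.

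**Figure D4:**
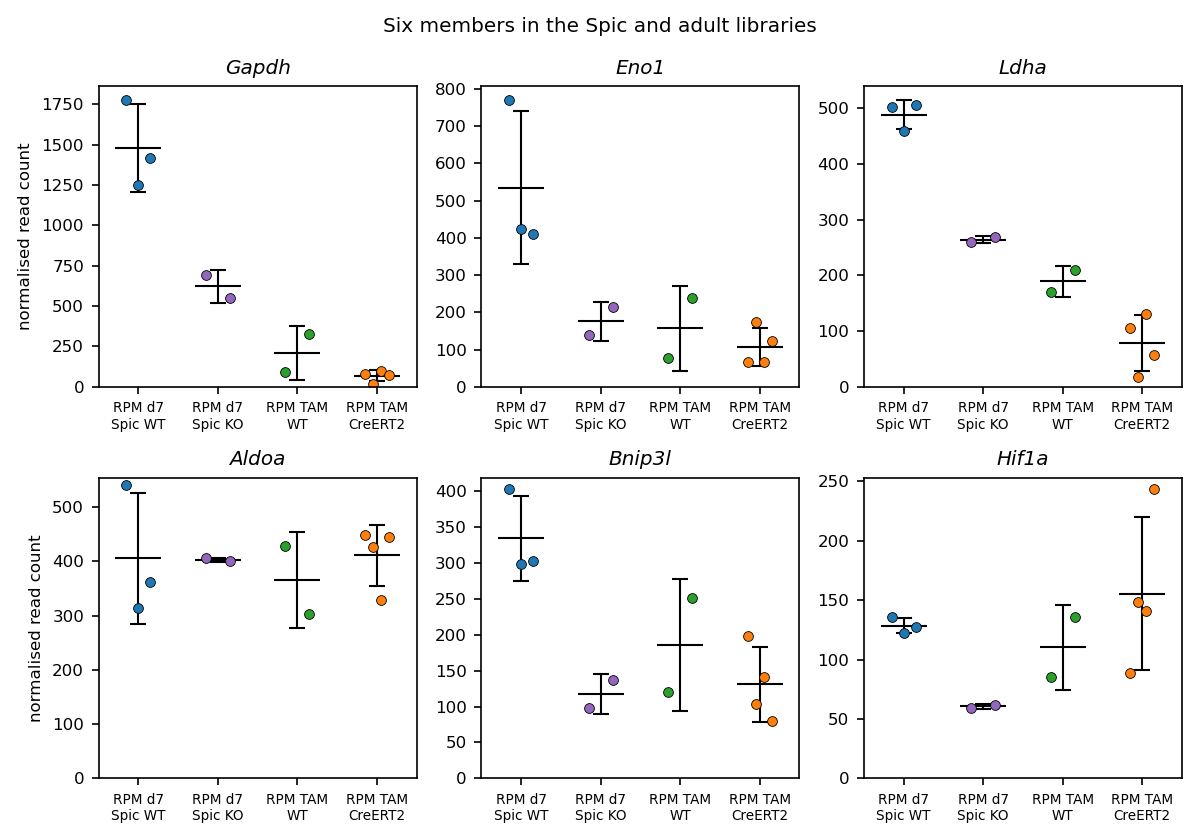
Normalised read counts of 6 members in the 4 groups of the second table, 1 point per library with the mean and SD (n = 3, 2, 2 and 4). Gapdh and Ldha lie highest in the Spic WT pups, while Aldoa stays between 304 and 541 in every library.

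**Figure D5:**
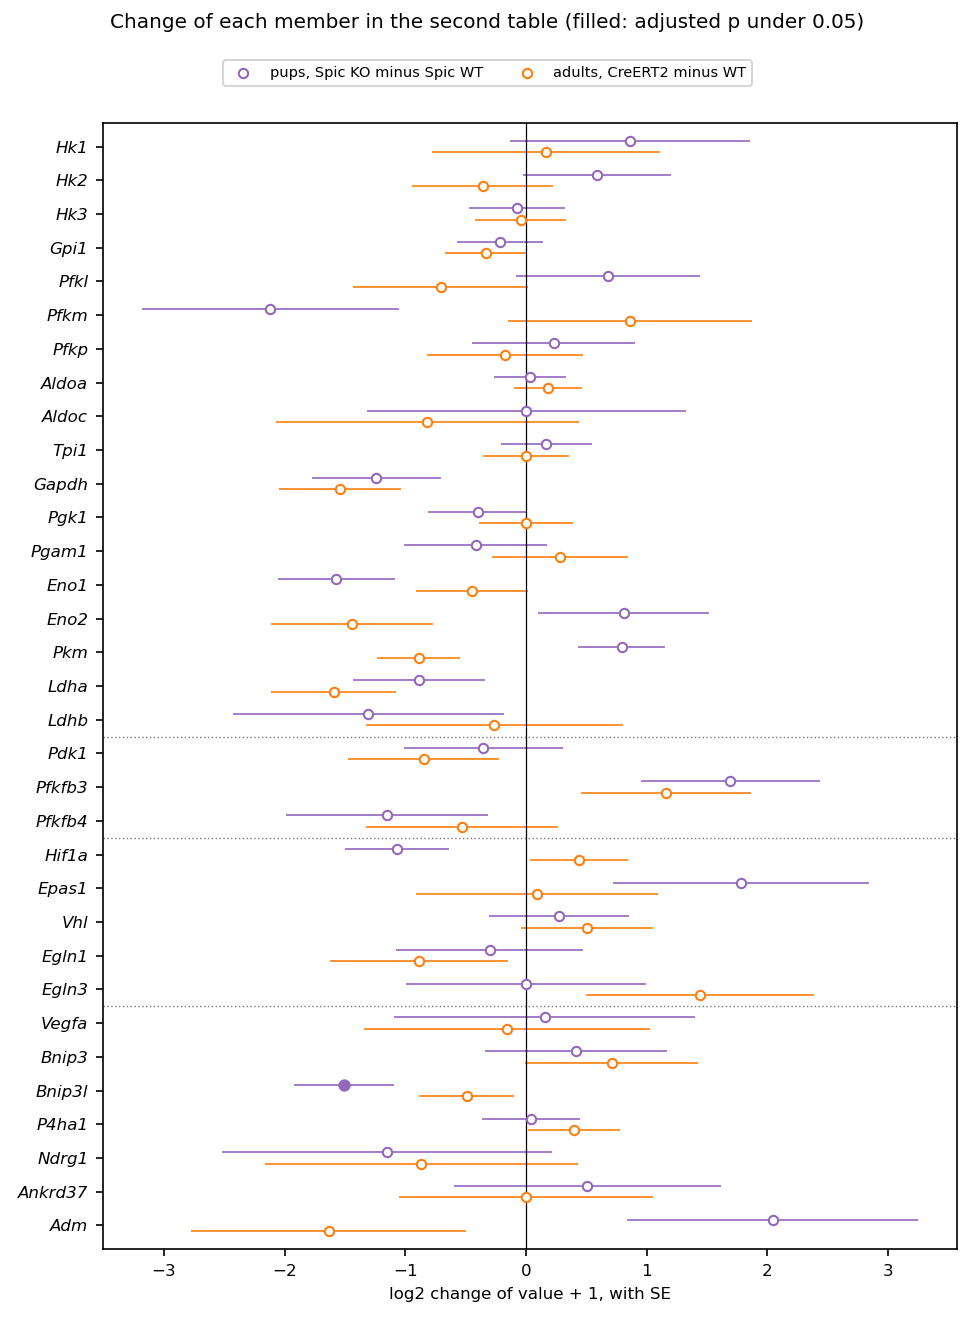
Log2 change with its SE of each member, Spic_KO minus Spic_WT in pups (purple) and CreERT2 minus WT in adults (orange). Filled points mark an adjusted p under 0.05, here Bnip3l with Spic_KO, and low genes such as Adm, Aldoc and Ndrg1 have the widest errors.

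Genes around the 33 were counted from a list of 86 written from general knowledge, of which 77 could be tested in the first table and 78 in the second. With vavCre in spleen none of 77 rose, against 2.98% of all genes, and 6 fell (7.79%), against 2.54%. The smallest p belonged to Taldo1 of the pentose phosphate branch (5677, 4890 and 6333 in WT and 3642, 2739 and 2750 in vavCre, log2 change -0.89 ± 0.16). Bhlhe40, a transcriptional repressor, read 312, 402 and 478 in RPM_d7_WT and 36.8, 84.8 and 49.2 in RPM_d7_vavCre (-2.85 ± 0.52). Gpd1, which links glycolysis to glycerol phosphate, read 605, 365 and 449 in RPM_d7_WT and 63.8, 56.0 and 71.4 in RPM_d7_vavCre (-2.85 ± 0.61), and Angptl4, an inhibitor of lipoprotein lipase that PPARs also induce, 833, 545 and 978 in RPM_d7_WT and 354, 251 and 442 in RPM_d7_vavCre (-1.16 ± 0.28). In none of these 4 did the groups overlap. Taldo1 and Bhlhe40 held under each of 15 alternatives, Gpd1 was lost without RPM_d7_WT replicate 1 (adjusted p = 0.0516), and Angptl4 without RPM_d7_WT replicate 1 (adjusted p = 0.0861), RPM_d7_WT replicate 3 (0.113) or RPM_d7_vavCre replicate 2 (0.113).

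In marrow 2 of 77 rose (2.60%), below the 3.41% of all genes, and 6 fell (7.79%), against 4.40%. Gpd1 read 414, 310.1 and 341 in WT and 6.28, 29.1 and 2.26 in vavCre (-5.30 ± 0.61). Bhlhe40 read 253, 343 and 289.5 in BMM_d7_WT and 6.28, 25.4 and 20.4 in BMM_d7_vavCre (-4.20 ± 0.52). Pgd, the dehydrogenase of the pentose phosphate branch, rose from 933, 1220 and 1103 to 1978, 1742 and 1788 (0.76 ± 0.15), while Taldo1 fell from 2409, 3404 and 2852 to 1673, 1942 and 1618 (-0.72 ± 0.16). The groups did not overlap, and each of these 4 calls held under 15 alternatives. Bhlhe40, Gpd1 and Taldo1 were thus lower in both tissues. So was Slc16a1, a lactate carrier gene named after its values were seen, at -0.97 ± 0.28 in spleen (limma adjusted p = 0.0479) and -1.13 ± 0.28 in marrow (limma adjusted p = 0.0158). Leaving out a library raised its adjusted p to as much as 0.230 in spleen and 0.0794 in marrow. No gene of the list passed the test between tissues' vavCre effects in limma. At an unadjusted p under 0.05 there were 5 of 77, against 935 of all 15130 genes.

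Between tissues 4 of 77 (5.19%) were higher in WT spleen, against 2.07% of all genes, and none lower, against 1.82%. They were the lipid droplet genes Plin2 (0.86 ± 0.16) and Hilpda (1.56 ± 0.33), the heme oxygenase gene Hmox1 (0.99 ± 0.21) and Taldo1 (0.97 ± 0.16). In vavCre 5 were higher (6.49%), against 2.68% of all genes, and none lower, against 0.820%, led by Hilpda (2.03 ± 0.33), Taldo1, Plin2 and the sugar transporter gene Slc2a6, which was listed at 0 in all vavCre marrow libraries. The WT calls of Taldo1 and Plin2 held under 15 alternatives. That of Hilpda was lost without RPM_d7_WT replicate 3 (adjusted p = 0.0581) or BMM_d7_WT replicate 1 (0.0577) and that of Hmox1 without RPM_d7_WT replicate 3 (adjusted p = 0.11) or BMM_d7_WT replicate 3 (0.0615). In vavCre, Plin2 was lost without RPM_d7_vavCre replicate 1 (adjusted p = 0.0502) and Slc2a6 in edgeR (adjusted p = 0.101).

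In the Spic_KO pups 1 of 78 rose (1.28%), near the 1.47% of all genes, and 4 fell (5.13%), against 2.48%. Hmox1 fell from 8806, 3227 and 3374 to 1363 and 1287 (-1.79 ± 0.30), Bhlhe40 from 73.0, 63.1 and 31.4 to 0.501 and 11.4 (-3.64 ± 0.76) and the pyruvate dehydrogenase kinase gene Pdk3 from 62.2, 49.0 and 49.8 to 2.50 and 13.4 (-2.93 ± 0.68). Plin2 rose from 531, 427 and 414 to 948 and 1440 (1.36 ± 0.34). Hmox1 held under 15 alternatives. Bhlhe40 was lost without RPM_d7_Spic_KO replicate 1 (adjusted p = 0.0615) and with the compared groups only (0.0713). Pdk3 was lost without RPM_d7_Spic_WT replicate 1 (adjusted p = 0.0943), RPM_d7_Spic_WT replicate 2 (0.0559), RPM_d7_Spic_WT replicate 3 (0.0622) or RPM_d7_Spic_KO replicate 1 (0.0753), and with the compared groups only (0.0613). Plin2 was lost without RPM_d7_Spic_WT replicate 2 (adjusted p = 0.0845), RPM_d7_Spic_WT replicate 3 (0.0973) or RPM_d7_Spic_KO replicate 2 (0.248), and without the second replicates of Spic_KO and CreERT2 together (0.153).

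In adults 1 gene of 78 (1.28%) passed with CreERT2, against 0.0841% of all genes lower and 0.0601% higher. It was Dld, a subunit of pyruvate dehydrogenase, at 209 and 174 in RPM_TAM_WT and 15.9, 4.43, 37.6 and 25.7 in RPM_TAM_CreERT2 (-3.45 ± 0.66). That call was lost without RPM_TAM_WT replicate 1 (adjusted p = 0.439), RPM_TAM_WT replicate 3 (0.143), RPM_TAM_CreERT2 replicate 1 (0.119), RPM_TAM_CreERT2 replicate 2 (0.0582) or RPM_TAM_CreERT2 replicate 5 (0.106), with a pseudocount of 5 (0.0567) and without a filter (0.128).

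Between adults and pups 2 of 78 were higher (2.56%), against 1.56% of all genes, and 3 lower (3.85%), against 1.86%. Cxcr4, a chemokine receptor gene, read 11.6, 14.4 and 7.12 in RPM_d7_Spic_WT and 262 and 60.4 in RPM_TAM_WT (3.45 ± 0.63), and Slc16a7, a monocarboxylate carrier gene, 119.6, 162 and 110.4 in RPM_d7_Spic_WT and 26.9 and 40.1 in RPM_TAM_WT (-1.94 ± 0.48). Rbx1, of the VHL ligase, was at -1.34 ± 0.34 and Rpia, of the pentose phosphate branch, at 2.81 ± 0.73. All 4 calls were lost without RPM_TAM_WT replicate 1, with adjusted p from 0.264 to 0.556. Slc16a7 and Rbx1 were lost without each Spic_WT library and Rpia without replicate 1 or 2 of them, with adjusted p from 0.0753 to 0.182. Without a filter Rbx1 (0.0506) and Rpia (0.0599) were lost, and Rpia also with a pseudocount of 5 (0.0503). B cell markers were higher in the same comparison for 6 of 11, and none was lower. Their part in the Cxcr4 value was not tested.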

How the data were processed

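The authors deposited a pair of tables of normalised read counts. The submitters' processing notes name STAR, edgeR and GRCm38, with neither version nor role. The deposited values are a signal scaled per library, and no header names the unit. Read counts were recovered with a single divisor per library: of values up to 500 reads, 97.7 to 100% and 96.6 to 100% then lay within 0.1 of a whole number. Library sums were 9.14 to 10.5 M and 1.43 to 1.73 M, so the tables were kept apart.

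Genes that reached a value of 1 in 2 or more libraries entered the test, on log2(value + 1) with limma 3.58.1 (R 4.3.3, trend and robust moderation), with a mean per group and residual degrees of freedom of 8 and 7. limma was the planned test for normalised values, with edgeR as the plan for raw counts. The test was checked on simulated data. All 33 members are accounted for. Those that passed in any comparison are given in every library, except Gapdh, given in the first table by level and change. Others are given by level, range or result. Of the other pathway genes, up to 4 that passed with the smallest p are named per comparison. The members and lists were chosen with earlier results of these data known. Levels per kb use the longest principal coding transcript of GENCODE vM21 (GRCm38, 1-based). For Aldoa the identifier with reads was used. Strand use in counting is not given in the sources used here. Promoters come from RefSeq (GRCm38.p6).

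Alternatives were pseudocounts of 0.1 and 5, leaving out the filter or raising it to 10, the compared groups alone, a replicate block, each library left out in turn, TMM rescaling, and edgeR 4.0.16 and DESeq2 1.42.0 on recovered reads. Leaving out the second replicates of RPM_d7_Spic_KO and RPM_TAM_CreERT2 together, which earlier results had set apart, was added after the data were seen.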

Additional observations from a re-analysis of the deposited data

Results flagged for a closer look

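RPM_TAM_CreERT2 is the one group with 4 libraries, and in 5 members 1 of its libraries lay far from the other 3. The gap to the nearest library as a share of the group's range was 1 for Ldhb (0, 0, 2.82 and 0), 0.939 for Vhl (39.8, 37.7, 71.5 and 38.5), 0.894 for Egln3 (0, 17.7, 1.88 and 0), 0.844 for Pfkfb4 (30.7, 8.86, 11.3 and 7.71) and 0.843 for Ndrg1 (6.82, 0, 43.3 and 6.42). The library that stood apart was replicate 1 for Pfkfb4, replicate 2 for Egln3 and replicate 4 for Ldhb, Vhl and Ndrg1. Each gap was above Dixon's critical value for 4 samples, which is passed by about 1 group in 20 by chance, and 31 members were examined. None of the 5 passed a test in the report.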

How the results depend on the processing

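The count of members that passed was recomputed under each alternative. Fitting only the compared groups gave 5 in place of 3 for splenic vavCre, 2 in place of 4 for marrow vavCre, 3 in place of 1 for Spic_KO and 6 in place of 2 for adults against pups. In the WT tissue comparison edgeR gave 0 in place of 1. In the vavCre tissue comparison the count was 0 in place of 1 with a pseudocount of 0.1, without a filter, with the strict filter, with the replicate block and in edgeR. For Spic_KO it was 0 with a pseudocount of 5, without a filter, with the block and after TMM rescaling, 2 in edgeR, 3 in DESeq2 and 2 without the 2 libraries set apart. For CreERT2 DESeq2 gave 1 in place of 0. For adults against pups it was 1 without a filter and 4 without the 2 libraries. The causes of these differences were not tested. Leaving out each library in turn gave 1 to 3 members in splenic vavCre, 2 to 5 in marrow vavCre, 0 to 0 in the difference between them, 0 to 1 and 0 to 0 between tissues in WT and vavCre, 0 to 1 in Spic_KO, 0 to 0 in CreERT2 and 0 to 2 between ages. Dropping 1 library of a group of 2 leaves a lone library that is assumed to vary like the other groups. No member's call reversed. Over all genes DESeq2 called 932 higher and 804 lower in Spic_KO and 760 and 509 between ages, where limma called 245 and 413, and 260 and 309. It called 592 and 371 in the vavCre tissue comparison and 67 and 70 in CreERT2, where limma called 405 and 124, and 10 and 14. In CreERT2 the median change of all genes was 0.11 in DESeq2 and 0.06 in edgeR, and 0.00 in limma with and without TMM rescaling. The cause was not tested.

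Same-numbered libraries did not deviate together (correlations of -0.04 to 0.06), so no pairing by number was seen. With so few libraries per group this check cannot exclude a weak one. The replicate block gave 0 members in the vavCre tissue and Spic_KO comparisons, also ended the Spic_KO calls of Pdk3 (adjusted p = 0.0565) and Plin2 (0.103), and kept the counts of splenic vavCre, marrow vavCre and WT tissue within 1.5 times. RPM_TAM_WT and RPM_TAM_CreERT2 share 1 number, so no block could be fitted there, and none was fitted between adults and pups, whose animals differ in age.

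Depth limits Aldoc, Eno2, Egln3, Vegfa, Ndrg1 and Adm most, with few reads in most libraries, and all members in RPM_TAM_CreERT2. Groups of 2 to 4 libraries leave changes of abundant genes below the spread undetectable.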
